A study of Mus musculus with 13 samples.

Results

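The aortas compared came from 12-month-old male C57BL/6 mice, and the comparison asked how gene expression differed between animals with and without the mineralocorticoid receptor in smooth muscle cells. The members were chosen by their labels alone: the aged samples of genotype MR-knockout (3 arrays) and of genotype wildtype (4 arrays), 7 of the 13 arrays of the series. The deletion is named as smooth-muscle-specific (SMC-MR-KO) in the study's design, while the sources used here give neither the promoter that drives it nor which parts of the gene were removed. The other 6 arrays, 3 knockout and 3 wildtype from mice of 3 to 4 months, entered the fit to share the estimate of spread and served for a side-by-side reading. Each array gave 1 log2 expression value for each of 21225 genes. Each array has a number of its own, but the labels do not state that each number is another animal, and p-values then reflect no more than the spread among these samples, which may be technical.

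The mineralocorticoid receptor is a nuclear receptor that binds aldosterone and glucocorticoids and then acts as a transcription factor on corticosteroid response elements. In vascular smooth muscle, the contractile layer of the arterial wall, it is known for its part in vascular tone, stiffness and matrix deposition. The dissected aorta also holds endothelium, adventitial fibroblasts, perivascular fat and resident immune cells, and all of them contribute RNA to a bulk sample. Fewer cells of a type and less RNA per cell cannot be told apart in such data.

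Nr3c2 (Entrez 110784), the gene of the deleted receptor, was read at 6.14, 6.22 and 6.58 (log2) on the aged knockout arrays and at 7.12, 6.86, 6.80 and 7.24 on the aged wildtype arrays. All 3 knockout arrays lay below all 4 wildtype arrays. The difference was -0.69 (SE 0.13), a level 1.62-fold lower in knockout aorta, with a limma adjusted p of 0.0599 over all genes and an exact two-sided permutation p of 0.0286, the smallest that 35 regroupings allow. A signal remains on the knockout arrays, and neither the cells that carry it nor the place of the probes relative to the deletion is given. Nr3c1, the gene of the glucocorticoid receptor, which binds the same response elements, lay between 8.96 and 9.07 on the 3 aged knockout arrays and between 8.92 and 9.09 on the 4 aged wildtype arrays, a difference of 0.01 (SE 0.06).

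Across the 21225 genes, 12 were called at a limma adjusted p under 0.05 (0.0565%), 8 higher in aged knockout aorta (0.0377%) and 4 lower (0.0188%). They were 3 immunoglobulin kappa light chain segments, 3 small nucleolar RNAs, the chemokine receptor gene Cxcr2 and Pramel19 among those that rose, and Ube2ql1, Capn13, Ibsp and Slc1a4 among those that fell. At an adjusted p under 0.1, a threshold added after seeing the data, 667 genes passed (3.14%), 356 higher (1.68%) and 311 lower (1.47%). Without adjustment, p was under 0.05 for 1821 genes with higher values (8.58%) and 1923 with lower values (9.06%). All 3 knockout arrays lay above all 4 wildtype arrays for 1114 genes (5.25%), and below them for 1084 (5.11%). Fitted on the 7 aged arrays alone, limma called 0 genes, with 2577 at an unadjusted p under 0.05 (12.1%) and a smallest adjusted p of 0.0549.

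**Figure D1:**
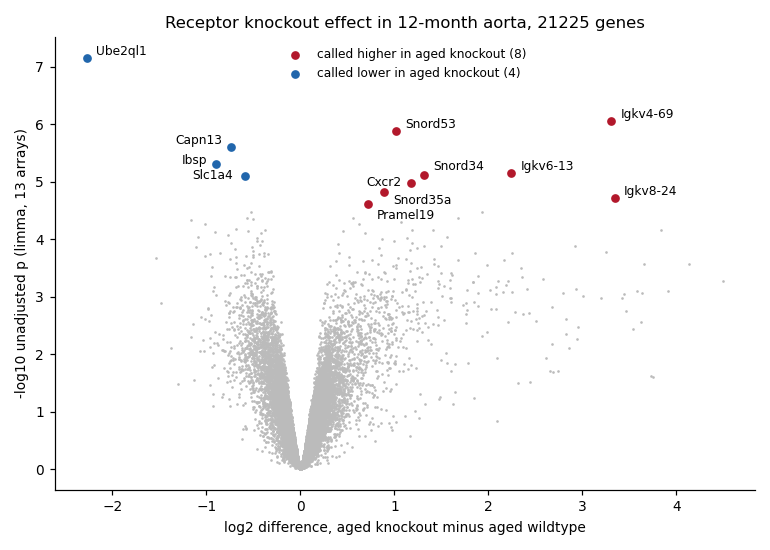
Each point is 1 of 21225 genes, with the log2 difference (aged knockout minus aged wildtype) on the x axis and the -log10 unadjusted limma p on the y axis. The 8 called genes that were higher in knockout aorta are red and the 4 that were lower are blue; Ube2ql1 stands alone at the upper left with a difference of -2.27.

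The aged knockout arrays differed more among themselves than the wildtype arrays did. Pairs correlated across genes at 0.983 to 0.99 among aged knockout arrays and at 0.992 to 0.996 among aged wildtype arrays, and the median gene SD was 0.148 in knockout and 0.114 in wildtype. On the first principal component of the 7 arrays (46.4% of the variance), aged knockout arrays 1 and 2 lay at -28.7 and -38.7 and array 3 at -1.9, against 10.5 to 22.3 for the wildtype arrays. The number of called genes rested on single arrays: it was 1442 without aged knockout array 3, 89 without array 1 and 26 without array 2, and 3, 196, 6 and 13 without aged wildtype arrays 1, 2, 3 and 4. With arrays 1 and 2 both left out, 1 knockout array remains, the fit takes its spread wholly from the other groups, and 10 genes were called, of which 2 were among the 12. Values without both arrays are therefore given as medians only, as a description of array 3.

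Ube2ql1 (Entrez 76980), whose product resembles ubiquitin-conjugating enzymes, showed the smallest p. It was read at 5.16, 5.56 and 5.32 on the aged knockout arrays and at 7.48, 8.25, 7.58 and 7.18 on the aged wildtype arrays. The groups lay more than 1 log2 unit apart, with no overlap. It fell by 2.27 (SE 0.20, limma adjusted p = 0.00148), a level 4.84-fold lower in knockout aorta, and it was called whichever of the 7 aged arrays was left out, with a highest adjusted p of 0.0106. In young aorta it was read at 5.99, 5.79 and 5.88 in knockout and at 6.12, 5.69 and 5.76 in wildtype, so that the 4 aged wildtype arrays were the high ones among all 13. The knockout effect in aged aorta minus that in young aorta was -2.30 (SE 0.29), with the smallest interaction p of all genes (unadjusted p = 3.97e-06, limma adjusted p = 0.0843), which missed the threshold.

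Capn13, a member of the calpain family of calcium-dependent proteases, was read at 3.76, 3.73 and 3.75 on the aged knockout arrays and at 4.59, 4.32, 4.61 and 4.41 on the aged wildtype arrays. It fell by 0.74 (SE 0.09, limma adjusted p = 0.0134). Ibsp, which encodes bone sialoprotein, a glycoprotein of mineralised matrix, was read at 3.77, 3.80 and 4.03 in knockout and at 4.93, 4.53, 4.62 and 4.97 in wildtype. It fell by 0.90 (SE 0.12, limma adjusted p = 0.0204). Neither gene overlapped between the groups, and both knockout means lay below the lower quartile of every aged array, which ran from 3.89 to 4.14. Slc1a4, a transporter of neutral amino acids, was read at 6.34, 6.14 and 6.46 in knockout and at 6.93, 6.80, 6.93 and 6.95 in wildtype, and it fell by 0.59 (SE 0.08, limma adjusted p = 0.0212). Left-out arrays cost these calls in part: of the 7 leave-one-out fits, 6 called Capn13, 6 called Ibsp and 4 called Slc1a4. In young aorta Ibsp was also lower, at 3.43, 3.23 and 3.35 in knockout and 3.82, 3.57 and 3.70 in wildtype. That difference was -0.358 (SE 0.125) and was not called. The young differences of Capn13 and Slc1a4 were -0.07 and 0.03.

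The next nameable genes with lower values, ranked by p, missed the threshold narrowly, with limma adjusted p between 0.0516 and 0.0518. Igfbp2, which binds insulin-like growth factors, was read at 6.88, 5.92 and 6.62 in aged knockout and at 7.57, 7.29, 7.91 and 7.79 in aged wildtype aorta, a difference of -1.17 (SE 0.19). Aged knockout array 2 was the lowest, and groups without overlap were a condition for naming a gene. Tnfrsf11b, which encodes osteoprotegerin, the decoy receptor for the osteoclast factor RANKL, differed by -0.68, the membrane-bound metalloprotease gene Mmp16 by -0.57, the chondroitin sulfate synthase gene Chsy3 by -0.52 and Hip1, an adaptor of clathrin-mediated uptake, by -0.51. In young aorta the knockout minus wildtype difference of Igfbp2, Tnfrsf11b, Mmp16, Chsy3 and Hip1 lay between -0.09 and 0.05.

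Among genes that rose, Cxcr2, a receptor for neutrophil-attracting chemokines, was read at 4.63, 4.43 and 3.83 on the aged knockout arrays and at 3.05, 2.98, 3.19 and 3.27 on the aged wildtype arrays. It rose by 1.17 (SE 0.17, limma adjusted p = 0.0244), and the wildtype mean lay below the lower quartile of the aged arrays. Pramel19 (deposited under the name Gm12794), of the PRAME-like family, was read at 3.54, 3.22 and 3.44 in knockout and at 2.84, 2.72, 2.58 and 2.58 in wildtype, also near the low end of the scale, and it rose by 0.72 (SE 0.11, limma adjusted p = 0.0426). Each was called in 4 of the 7 leave-one-out fits. In all, 7 of the 12 called genes had a lower group mean under 3.89, the lowest lower quartile of the aged arrays: Capn13, Ibsp, Cxcr2, Pramel19 and the 3 immunoglobulin segments.

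The next 8 nameable genes with higher values had limma adjusted p between 0.0518 and 0.0556, and none of them passed. Kynu, which encodes kynureninase of tryptophan breakdown, was read at 5.90, 4.73 and 4.61 in aged knockout and at 3.47, 3.19, 3.41 and 3.54 in aged wildtype aorta, a difference of 1.68 (SE 0.27). Icos, a co-stimulatory receptor of T cells, was read at 6.88, 5.82 and 5.56 in knockout and at 4.89, 4.58, 4.66 and 4.58 in wildtype, a difference of 1.41 (SE 0.24). Aged knockout array 1 was the highest for either gene, and groups without overlap were a condition for naming. H2-Oa, a chain of the MHC class II chaperone DO, differed by 1.56, the lymphocyte GTPase gene Gimap4 by 1.14, the interferon-inducible Gbp8 by 0.87, Aif1, a calcium-binding protein of myeloid cells, by 0.62, Bcl3, an atypical inhibitor of NF-kappaB, by 0.56 and Plcl2, a phospholipase C-like protein, by 0.45.

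**Figure D2:**
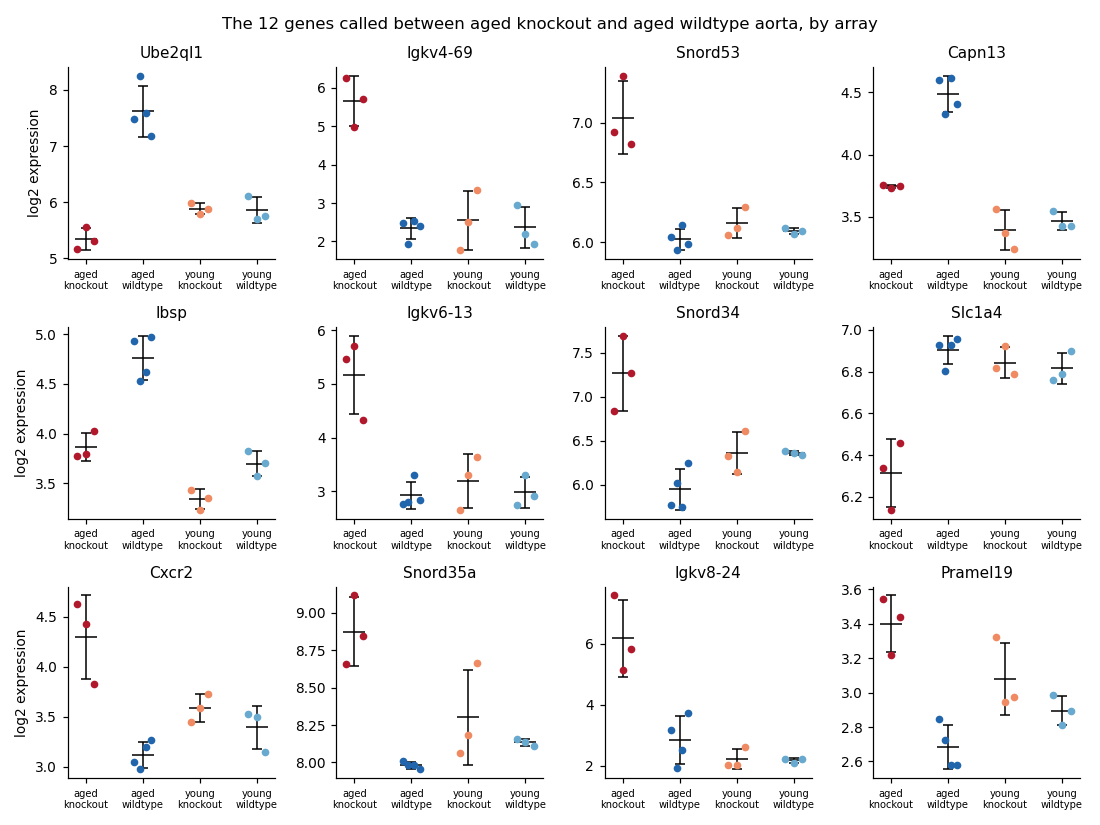
Each panel shows 1 of the 12 called genes, with log2 expression on the y axis (axes do not start at 0) and a point for each array of the 4 groups; the bar is the mean and the whiskers are 1 SD. In every panel the 3 aged knockout arrays do not overlap the 4 aged wildtype arrays; for Ube2ql1 the aged wildtype arrays are high, at 7.18 to 8.25.

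The 250 bases before the transcription start were searched for the corticosteroid receptor element, AGAACA followed by any 3 bases and TGTTCT, and for its shorter element AGAACA alone, on both strands; every match of the longer element holds the shorter one. Windows were taken from RefSeq (GRCm38.p6) and were at hand for 6 of the 10 lower and 6 of the 10 higher genes. The longer element was found in none of them, and in 3 of 32851 windows of all genes (0.009%). The shorter element was found before 1 of the 6 lower genes, Igfbp2, and before 2 of the 6 higher genes, Cxcr2 and Gimap4, against 16.1% of all windows. The windows of Ube2ql1 (chr13:69739898-69740147, minus strand), Igfbp2 (chr1:72824230-72824479, plus strand) and Cxcr2 (chr1:74153744-74153993, plus strand) are shown as the gene with the smallest p and 2 genes with a match, 5′ to 3′ and with AGAACA on either strand in capitals.
Ube2ql1: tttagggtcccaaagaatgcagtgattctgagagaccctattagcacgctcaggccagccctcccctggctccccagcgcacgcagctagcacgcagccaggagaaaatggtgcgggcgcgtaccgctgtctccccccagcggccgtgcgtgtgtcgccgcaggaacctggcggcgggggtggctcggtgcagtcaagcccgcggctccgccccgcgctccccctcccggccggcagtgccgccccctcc
Igfbp2: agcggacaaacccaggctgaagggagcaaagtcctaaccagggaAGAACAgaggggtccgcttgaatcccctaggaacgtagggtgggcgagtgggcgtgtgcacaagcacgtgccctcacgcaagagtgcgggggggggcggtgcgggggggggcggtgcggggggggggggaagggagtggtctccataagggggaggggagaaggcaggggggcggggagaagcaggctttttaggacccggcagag
Cxcr2: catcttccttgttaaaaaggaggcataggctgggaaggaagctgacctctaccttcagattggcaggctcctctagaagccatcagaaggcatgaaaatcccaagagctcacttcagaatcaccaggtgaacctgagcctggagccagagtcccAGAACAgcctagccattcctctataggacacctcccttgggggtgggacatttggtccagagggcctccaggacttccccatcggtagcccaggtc
A match is a run of letters and not a bound site, and its absence says only that these letters are not in this window.

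Immunoglobulin genes, the products of B lymphocytes and plasma cells, made up the 10 highest differences of all genes measured, up to 4.50 for a kappa segment. They fall outside the naming rule and were singled out after their values were seen. Igkv4-69, a kappa light chain variable segment, was read at 6.27, 4.97 and 5.72 on the aged knockout arrays and at 2.49, 1.95, 2.54 and 2.41 on the aged wildtype arrays, and it rose by 3.30 (SE 0.37, limma adjusted p = 0.00918). It was called in all 7 leave-one-out fits, with a highest adjusted p of 0.0465. Igkv8-24 rose by 3.34 (SE 0.50, limma adjusted p = 0.0372) and Igkv6-13 by 2.24 (SE 0.30, limma adjusted p = 0.0212), each called in 5 of the 7 leave-one-out fits. Variable segments resemble each other in sequence, so single segments are uncertain.

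All 44 kappa variable segments had positive differences, from 0.13 to 4.50 with a median of 2.17, beside a median of 0.02 over all genes. This and later counts stand beside shares over all genes of 8.58% higher and 9.06% lower at an unadjusted p under 0.05. For groups without overlap the shares were 5.25% higher and 5.11% lower. Unadjusted p was under 0.05 for 39 of the kappa segments, the groups did not overlap for 24, and 3 were called. Their mean level was 7.77, 5.86 and 6.25 on the aged knockout arrays and 4.91, 3.89, 4.16 and 4.94 on the aged wildtype arrays. Of 23 heavy chain variable segments, 13 had an unadjusted p under 0.05, all higher, with a median of 0.61 and 0 called by limma on the 13 arrays or on the 7, where 12 had an unadjusted p under 0.05. The 36 T cell receptor variable segments had a median of 0.09, 3 with an unadjusted p under 0.05 and 0 called by either fit, 2 having such a p on the 7 arrays.

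None of the constant regions was called. Ighm, the constant region of IgM, was read at 11.59, 10.73 and 10.43 in aged knockout and at 9.35, 9.07, 9.39 and 9.85 in aged wildtype aorta, a level 2.82-fold higher in knockout (limma adjusted p = 0.0686). Ighg1, of IgG1, was read at 12.41, 8.70 and 10.74 in knockout and at 8.88, 5.63, 6.01 and 7.44 in wildtype, a difference of 3.63 (SE 0.83, limma adjusted p = 0.0759). Ighm did not overlap between the groups, while for Ighg1 aged knockout array 2 lay below aged wildtype array 1. Igha, of IgA, differed by 2.86 and Ighg2b by 3.47, both without overlap.

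Markers of B lymphocytes and plasma cells had a median difference of 2.06 over 26 genes, with 25 at an unadjusted p under 0.05, all higher, and 23 without overlap. The list holds 7 of the constant regions, Ighm, Ighg1, Ighg2b and Igha among them. By limma on the 13 arrays 0 were called, and on the 7 arrays 0 were called with 24 at an unadjusted p under 0.05; at an adjusted p under 0.1 on the 13 arrays, 20 passed. The mean level of the list was 8.87, 7.33 and 7.24 on the aged knockout arrays and 6.10, 5.55, 5.81 and 6.04 on the aged wildtype arrays. Ms4a1, which encodes CD20, differed by 2.79, Cd79b of the B cell receptor by 2.35, the transcriptional co-activator gene Pou2af1 by 2.35 and Jchain, the joining chain of IgM and IgA, by 3.20. Young knockout array 3 stood at 6.78, above the other 5 young arrays at 5.37 to 5.80. On aged knockout array 3 alone, against the wildtype arrays, the median was 1.21.

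T lymphocyte markers had a median difference of 0.74 over 20 genes, with 15 at an unadjusted p under 0.05, all higher, 9 without overlap and 0 called by limma on the 13 arrays or on the 7, where 15 had an unadjusted p under 0.05. Their mean level was 6.69, 6.23 and 5.56 in aged knockout and 5.26, 5.57, 5.57 and 5.26 in aged wildtype aorta, so that aged knockout array 3 lay within the wildtype range. Trac, the constant region of the T cell receptor alpha chain, differed by 2.21, Cd3g of the receptor complex by 1.33 and Il2rb, a chain of the interleukin-2 receptor, by 1.28. With aged knockout array 3 as the sole knockout array the median was 0.21.

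Genes of lymphoid tissue organisation, which cover the chemokines, adhesion molecules and receptors that gather lymphocytes, had a median difference of 0.60 over 31 genes. Unadjusted p was under 0.05 for 22 with higher values and 1 with lower values, 18 did not overlap, and 0 were called by limma on the 13 arrays or on the 7, where 19 had an unadjusted p under 0.05. Cxcl13, the chemokine that attracts B cells to follicles, was read at 9.98, 9.76 and 8.42 in aged knockout and at 6.73, 7.01, 5.94 and 6.21 in aged wildtype aorta, a difference of 2.92 (SE 0.53, limma adjusted p = 0.0578). Its receptor gene Cxcr5 was read at 5.58, 4.15 and 3.79 in knockout and at 3.01, 3.03, 2.66 and 2.94 in wildtype, a difference of 1.60 (SE 0.33, limma adjusted p = 0.0686). Neither overlapped between the groups. Glycam1, a mucin-like glycoprotein of lymph node venules, differed by 2.93, Cr2, a complement receptor of B cells and follicular dendritic cells, by 2.10, Fcer2a by 2.43, Ccr7 by 1.24 and Lta, which encodes lymphotoxin alpha, by 0.64. Cr2 also belongs to the B lymphocyte and plasma cell list, so these lists are not wholly separate. The median of lymphoid tissue organisation was 0.20 for aged knockout array 3 alone.

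Genes of antigen presentation by MHC class II had a median difference of 0.93 over 12 genes, with 11 at an unadjusted p under 0.05, all higher, 9 without overlap and 0 called by limma on the 13 arrays or on the 7, where 11 had an unadjusted p under 0.05. Their mean level was 8.90, 8.17 and 7.80 in aged knockout and 7.36, 7.19, 7.22 and 7.21 in aged wildtype aorta. H2-Ob differed by 2.25, H2-DMb2 by 1.89, Ciita, the master activator of these genes, by 1.14 and H2-Ab1 by 0.96. For aged knockout array 3 alone the median was 0.47.

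Among 27 interferon response genes, 8 had higher values and 1 lower values at an unadjusted p under 0.05, with a median of 0.13. Irf8, a transcription factor of B and myeloid cells, differed by 1.47, the peptide transporter gene Tap1 by 0.97 and the immunoproteasome gene Psmb8 by 0.86, all without overlap. Macrophage markers (24 genes) centred on a median of 0.00, with 4 higher and 4 lower at an unadjusted p under 0.05. Those with higher values were Marco (1.19), Cd209b (1.30), Clec4n (0.61) and Lyz2 (0.53), Marco and Cd209b being receptors of marginal zone macrophages in mouse spleen, while Mrc1, the mannose receptor of resident macrophages, differed by -0.23 and F13a1 by -0.38. None of these was called by limma on the 13 arrays or on the 7, where 8 interferon response genes had higher and 1 lower values and 4 macrophage markers had higher and 4 lower values at an unadjusted p under 0.05.

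Cell cycle genes had a median difference of 0.56 over 24 genes, with 16 at an unadjusted p under 0.05, all higher, 6 without overlap and 0 called by limma on the 13 arrays or on the 7, where 6 had an unadjusted p under 0.05. Mki67, the proliferation marker Ki-67, was read at 8.33, 5.89 and 6.37 in aged knockout and at 5.89, 5.72, 5.83 and 5.66 in aged wildtype aorta, a difference of 1.09 (SE 0.41, limma adjusted p = 0.187). Aged knockout array 1 alone was far above the rest, and array 2 was level with aged wildtype array 1. The list level was 6.47, 5.10 and 5.28 in knockout and 5.03, 5.02, 5.05 and 4.97 in wildtype, and without aged knockout array 1 the median was 0.18, with 7 higher and 1 lower at an unadjusted p under 0.05.

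**Figure D3:**
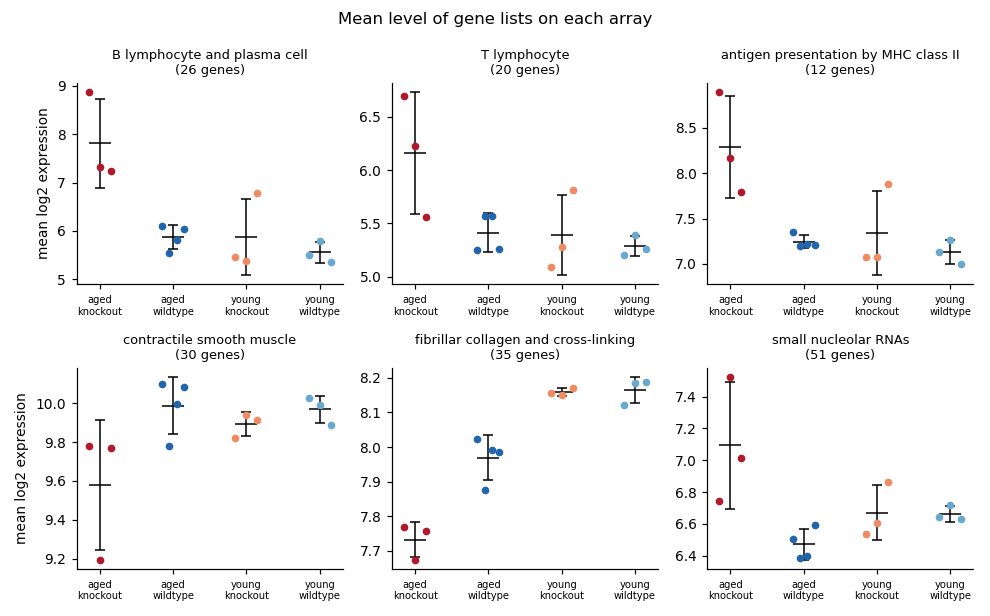
Each panel gives the mean log2 expression of a gene list on each array of the 4 groups (points), with the group mean and 1 SD (bar and whiskers); axes do not start at 0. B lymphocyte and plasma cell genes stand at 7.24 to 8.87 on the aged knockout arrays and at 5.55 to 6.10 on the aged wildtype arrays, while contractile genes stand lowest, at 9.19, on aged knockout array 2.

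Small nucleolar RNAs, which guide the chemical modification of ribosomal RNA and are mostly excised from introns of host genes, had higher readings in aged knockout aorta in nearly all members. They too fall outside the naming rule and were singled out after their values were seen. Of 51 measured, 49 had positive differences, with a median of 0.66, 42 had an unadjusted p under 0.05, all higher, 23 did not overlap between the groups and 3 were called. Fitted on the 7 aged arrays, 34 had an unadjusted p under 0.05. The class averaged 6.74, 7.52 and 7.01 on the aged knockout arrays and 6.51, 6.38, 6.40 and 6.59 on the aged wildtype arrays, with array 2 the highest. The medians of the 31 C/D box members, which guide methylation, and of the 16 H/ACA box members, which guide pseudouridylation, were 0.65 and 0.69. Without aged knockout array 2 the class median was 0.32, with 25 at an unadjusted p under 0.05. For array 3 alone it was 0.55.

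Snord53 was read at 6.92, 7.39 and 6.82 in aged knockout and at 6.04, 5.93, 6.14 and 5.99 in aged wildtype aorta, and it rose by 1.02 (SE 0.12, limma adjusted p = 0.00918). Snord34 was read at 6.83, 7.69 and 7.27 in knockout and at 5.78, 6.03, 5.75 and 6.24 in wildtype, and it rose by 1.31 (SE 0.18, limma adjusted p = 0.0212). Snord35a was read at 8.66, 9.12 and 8.85 in knockout and at 8.01, 7.98, 7.98 and 7.95 in wildtype, and it rose by 0.89 (SE 0.13, limma adjusted p = 0.0321). The 3 were without overlap, and they were called in 7, 5 and 3 of the 7 leave-one-out fits, in that order.

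Snord34 and Snord35a lie in introns of Rpl13a, a ribosomal protein gene that also holds Snord32a and Snord33. All 4 were without overlap, with differences of 0.89 to 1.31, beside 0.21 for Rpl13a itself (unadjusted p = 0.0356, not called). The host of Snord53, Wdr43, differed by 0.12. The host gene was measured for 27 of the 51 small nucleolar RNAs, in 21 host genes, of which 0 were called by limma and 5 had an unadjusted p under 0.05, all higher. The difference of the small nucleolar RNA was above that of its host for 24 of the 27, and the medians were 0.54 for these RNAs and 0.11 for the hosts. An exception was Hspa8, a constitutive heat shock protein gene, read at 11.88, 12.45 and 11.06 in aged knockout and at 10.64, 10.31, 10.60 and 10.68 in aged wildtype aorta, a difference of 1.24 (SE 0.23, limma adjusted p = 0.0587), beside 0.49 for Snord14e in its intron. Where the probes lie is not given, so that the mature small RNA and the unspliced host transcript cannot be told apart.

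**Figure D4:**
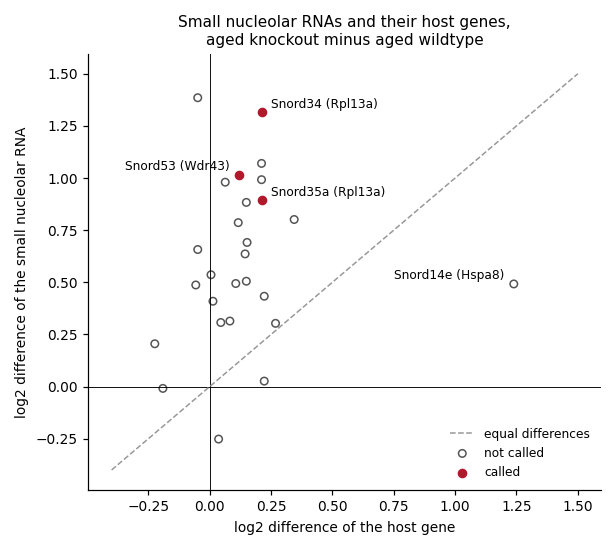
Each point is 1 of 27 small nucleolar RNAs with a measured host gene, with the log2 difference (aged knockout minus aged wildtype) of the host on the x axis and that of the small nucleolar RNA on the y axis; the dashed line marks equal differences. A total of 24 points lie above the line, and Snord14e, with its host Hspa8 at 1.24, lies furthest below it.

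Contractile smooth muscle genes had a median difference of -0.41 over 30 genes, beside 0.02 over all genes, with 29 of the 30 negative. Over all genes, 9.06% were lower at an unadjusted p under 0.05 and 5.11% were lower without overlap. In the list, unadjusted p was under 0.05 for 23, all lower, and 3 did not overlap. Of its genes, 0 were called by limma on the 13 arrays or on the 7, where 12 had an unadjusted p under 0.05. The mean level was 9.78, 9.19 and 9.77 on the aged knockout arrays and 10.10, 9.78, 9.99 and 10.08 on the aged wildtype arrays. Aged knockout array 2 was the lowest, and arrays 1 and 3 stood beside aged wildtype array 2. Without array 2 the median was -0.22, with 8 at an unadjusted p under 0.05.

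Cnn1, which encodes calponin of the contractile filaments, was read at 11.47, 10.12 and 11.48 in aged knockout and at 11.92, 11.42, 11.76 and 11.73 in aged wildtype aorta, a difference of -0.69 (SE 0.26, limma adjusted p = 0.192). Myh11, the smooth muscle myosin heavy chain gene, was read at 11.98, 11.27 and 11.77 in knockout and at 12.15, 11.80, 12.04 and 12.12 in wildtype, a difference of -0.36 (SE 0.14, limma adjusted p = 0.202). Both overlapped between the groups. Acta2, the smooth muscle actin gene, differed by -0.27, Actg2, enteric smooth muscle actin, by -1.02 and without overlap, and Myocd, the co-activator of this programme, by -0.54. Acta2 lay between 12.36 and 13.03 on all 7 arrays, so smooth muscle RNA was present on each, which does not show the share of other tissue.

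Over all genes, unadjusted p was under 0.05 with higher values for 8.58% and with lower values for 9.06%. The counts for markers of other cell types are to be read beside these shares. Liver markers averaged 5.16, 6.55 and 5.15 on the aged knockout arrays and 4.94, 5.13, 5.42 and 4.94 on the aged wildtype arrays, with 3 of 20 at an unadjusted p under 0.05, all higher. Schwann and neuronal markers averaged 5.53, 6.71 and 5.54 in knockout and 5.54, 5.75, 5.50 and 5.45 in wildtype, with 1 of 21 at an unadjusted p under 0.05. In both lists aged knockout array 2 alone was the high one, and every member overlapped between the groups. Their part and that of the B lymphocyte genes in the lower contractile values was not tested. In a fit with the mean of the B lymphocyte list as a covariate, the contractile median was -0.73. There 23 contractile genes were lower at an unadjusted p under 0.05. That covariate did not overlap between the aged groups (7.24 to 8.87 in knockout, 5.55 to 6.10 in wildtype), so the fit is no test of that part. The median, without a covariate, was 0.04 for endothelial markers, with 2 of 22 at an unadjusted p under 0.05, both lower, near the share over all genes. It was 0.14 for white and 0.17 for brown adipocyte markers. At an unadjusted p under 0.05 stood 5 of 20 white and 5 of 14 brown adipocyte markers, all higher, against 1 and 0 on the 7 aged arrays alone.

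Fibrillar collagens and their cross-linking enzymes had a median difference of -0.28 over 35 genes, with 21 at an unadjusted p under 0.05, all lower, 15 without overlap and 0 called by limma on the 13 arrays or on the 7, where 17 had an unadjusted p under 0.05. Their mean level was 7.77, 7.67 and 7.76 in aged knockout and 8.02, 7.88, 7.99 and 7.99 in aged wildtype aorta, with no overlap. Col6a3, a chain of the microfibrillar collagen VI, was read at 7.83, 7.60 and 7.72 in knockout and at 8.31, 8.11, 8.19 and 8.31 in wildtype, a difference of -0.52 (SE 0.10, limma adjusted p = 0.0587). Pcolce, an enhancer of procollagen processing, was read at 9.53, 9.55 and 9.58 in knockout and at 10.06, 9.80, 10.06 and 9.91 in wildtype, a difference of -0.41 (SE 0.07, limma adjusted p = 0.0562). Neither overlapped. Col1a1 and Col3a1, the main fibrillar collagens of the artery, differed by -0.20 and -0.07 with limma adjusted p of 0.297 and 0.71, without overlap for Col1a1 and with overlap for Col3a1. For aged knockout array 3 alone the median was -0.21.

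Elastic fibre genes averaged 8.45, 8.03 and 8.41 on the aged knockout arrays and 8.68, 8.56, 8.65 and 8.68 on the aged wildtype arrays, with array 2 the lowest, as for the contractile genes. They had a median of -0.31 over 20 genes, with 12 lower at an unadjusted p under 0.05, 6 without overlap and 0 called by limma on the 13 arrays or on the 7, where 9 had an unadjusted p under 0.05. Fbln5, which links elastin to integrins, differed by -0.70 and the large proteoglycan gene Vcan by -0.67, while Eln, elastin itself, differed by -0.20 (limma adjusted p = 0.646). Basement membrane genes had a median of -0.22 over 20, with 12 lower at an unadjusted p under 0.05, 8 without overlap and 0 called by either fit, 8 having an unadjusted p under 0.05 on the 7 arrays. Agrn, the heparan sulfate proteoglycan agrin, differed by -0.39 and Col4a6, a collagen IV chain, by -0.52. Fibroblast markers had a median of -0.28 over 20, with 12 lower at an unadjusted p under 0.05 and 9 without overlap, among them Pi16 (-0.59), Lum (-0.48) and Pdgfrl (-0.52), so that lower matrix and lower fibroblast readings stood side by side. Their relation was not tested, and 0 fibroblast markers were called by either fit, with 10 at an unadjusted p under 0.05 on the 7 arrays.

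Of 36 matrix proteases and their inhibitors, 12 had lower and 1 higher values at an unadjusted p under 0.05, with a median of -0.04, and limma called 0 on the 13 arrays and on the 7, where 10 had lower and 1 higher values at an unadjusted p under 0.05. Besides Mmp16, the 6 that passed an adjusted p under 0.1 with lower values were Adamts5 (-0.50), Reck (-0.56), Mmp23 (-0.40), Timp3 (-0.38), Adamts2 (-0.35) and Mmp2 (-0.31). They cover aggrecan cleavage (Adamts5), procollagen trimming (Adamts2), gelatin cleavage (Mmp2) and inhibition of metalloproteases (Reck, Timp3). In the TGF-beta and BMP list, 14 of 33 had lower and 1 higher values at an unadjusted p under 0.05, with a median of -0.15. Inhba, the activin A subunit, was read at 7.94, 6.98 and 7.88 in aged knockout and at 8.80, 8.31, 8.65 and 8.68 in aged wildtype aorta, a difference of -1.01 (SE 0.19, limma adjusted p = 0.0605).

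**Figure D5:**
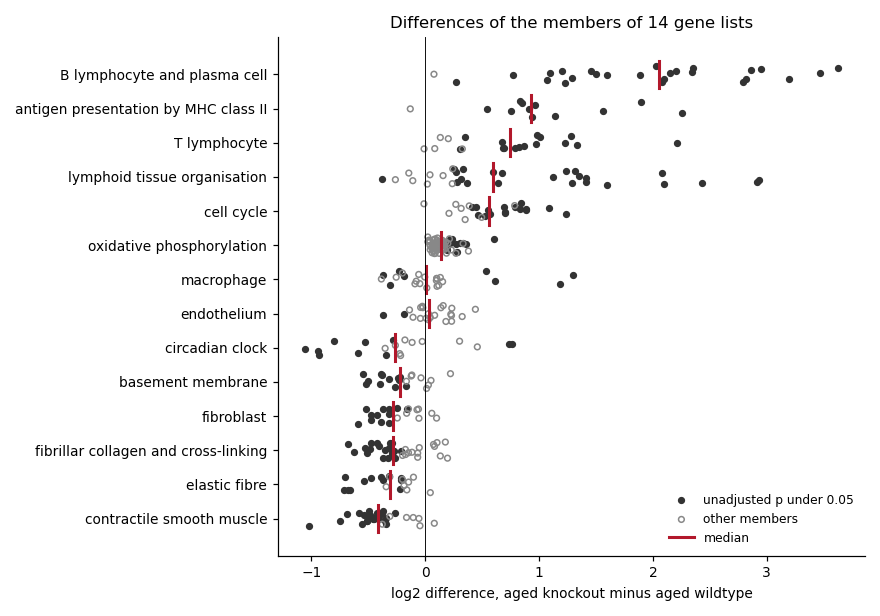
Each row is a gene list and each point a member, with the log2 difference (aged knockout minus aged wildtype) on the x axis; filled points have an unadjusted p under 0.05 and the red line is the median of the list. Medians run from 2.06 for B lymphocyte and plasma cell genes to -0.41 for contractile smooth muscle genes.

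Genes known as corticosteroid receptor targets had differences on both sides of 0, with 11 positive and 14 negative, from -0.96 to 0.51. Those with an unadjusted p under 0.05 were mostly lower. Of 25 measured, 6 had lower and 1 higher values at such a p, with a median of -0.07. Over all genes 9.06% were lower and 8.58% higher at such a p. Groups did not overlap for 2, both lower, beside 5.11% of all genes. Limma called 0 on the 13 arrays or on the 7, where 3 had an unadjusted p under 0.05. At an adjusted p under 0.1, 1 was lower and 0 higher. Klf9, a transcription factor gene that responds to glucocorticoids, was read at 9.53, 9.45 and 9.41 in aged knockout and at 9.70, 9.64, 9.59 and 9.79 in aged wildtype aorta, a difference of -0.22 (SE 0.07, limma adjusted p = 0.151). Its groups did not overlap. The kinase gene Sgk1 differed by -0.07, Fkbp5, a chaperone of steroid receptors, by -0.03 and Tsc22d3, which encodes GILZ, by 0.16. The median of the list was 0.04 without aged knockout array 1 and 0.02 without aged wildtype array 1.

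Circadian clock genes had a median of -0.26 over 19 genes, with 8 lower and 2 higher at an unadjusted p under 0.05, 7 without overlap, all lower, and 0 called by limma on the 13 arrays or on the 7, where 10 had lower and 1 higher values at an unadjusted p under 0.05. Ciart, a repressor of the clock, was read at 6.11, 5.87 and 6.14 in aged knockout and at 6.99, 7.47, 6.67 and 7.28 in aged wildtype aorta, a difference of -1.06 (SE 0.28, limma adjusted p = 0.0916). The clock repressor gene Nr1d1 was read at 11.20, 8.82 and 11.19 in knockout and at 11.37, 11.29, 11.24 and 11.44 in wildtype, a difference of -0.93 (SE 0.43), with array 2 far below the rest. Arntl, which encodes the activator BMAL1, differed by 0.76. The hour of tissue collection is not given, and without aged knockout array 2 the list had 4 lower and 0 higher genes at an unadjusted p under 0.05.

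In each list of vascular tone, lower values outnumbered higher ones at an unadjusted p under 0.05. Only the ion channel list had a median well away from 0. Of 36 ion channel and calcium handling genes, 11 had lower and 3 higher values at an unadjusted p under 0.05, with a median of -0.23, and without aged knockout array 2 the median was -0.14, with 8 lower and 0 higher. Kcnma1, the pore of the large-conductance potassium channel, differed by -0.61 and Cacna2d1, a calcium channel subunit, by -0.56, both without overlap. Of 42 vasoactive receptor genes, 9 had lower and 2 higher values, with a median of -0.02, and the endothelin receptor gene Ednra differed by -0.27 and the serotonin receptor gene Htr1b by -0.57. The 17 genes of the renin-angiotensin-aldosterone system had a median of 0.01, with 3 lower (Ren1, Ace and Nr3c2, the deleted gene itself) and 0 higher at an unadjusted p under 0.05. Ace, which encodes angiotensin-converting enzyme, was read at 9.92, 9.30 and 9.89 in aged knockout and at 10.34, 10.08, 10.37 and 10.27 in aged wildtype aorta, a difference of -0.56 (SE 0.14, limma adjusted p = 0.083), with no overlap. All 67 measured oxidative phosphorylation genes had positive differences, with a median of 0.14 and 13 at an unadjusted p under 0.05, but their groups overlapped in every case. With each array centred on its median, the oxidative phosphorylation median was 0.09, with 1 gene at an unadjusted p under 0.05.

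In young aorta limma called 0 genes between knockout and wildtype and 549 had an unadjusted p under 0.05 (2.59%). The young medians, knockout minus wildtype, were 0.22 for B lymphocyte and plasma cell markers, 0.26 for kappa segments, 0.05 for small nucleolar RNAs, -0.01 for contractile genes and -0.01 for fibrillar collagens. The knockout effect in aged aorta minus that in young aorta was called for 0 genes, with 1723 at an unadjusted p under 0.05 (8.12%). The young arrays differed in muscle markers: cardiac muscle genes averaged 5.95, 7.13 and 6.82 in young knockout and 8.22, 7.95 and 5.81 in young wildtype aorta, and 5.50 to 6.05 on the aged arrays. The 1723 genes held 15 of the 26 B lymphocyte and plasma cell markers, 20 of the 51 small nucleolar RNAs, 12 of the 35 fibrillar collagen genes and 6 of the 30 contractile genes. The difference between the ages contains the aged difference itself, so these counts are no separate evidence for lists already described by it. Of Nr3c2, the young knockout arrays read 6.26, 6.09 and 6.42 and the young wildtype arrays 6.68, 6.62 and 6.69, and its knockout effect differed between the ages by -0.29 (SE 0.19, limma adjusted p = 0.686).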

How the data were processed

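RNA from mouse aorta was measured on 13 arrays with biotin-labelled RNA, per the labels. The deposited values are log2 expression, 1 per gene and array, made with RMA per the submitters' processing notes, which also name affy and limma. Tool versions, array platform and genome build were not found there, in the labels or in the file headers. A copy of these log2 values rounded to 2 decimals was also deposited. The deposited p-value of the aged comparison, per the file headers, equalled that of a limma fit of the 7 aged arrays (largest difference 6e-13) and was used only as an alternative. The deposited signed fold change (a score) was the ratio of group means of unlogged values and was not used for results. Of 21225 features, 20768 were named by Entrez ID through RefSeq's gene table (GRCm38.p6), 2545 with an updated symbol, and 457 kept the deposited name.

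The log2 values were fitted as deposited, with no filter on dim features, by lmFit and eBayes of limma 3.58.1 (R 4.3.3). The model held a mean for each of the 4 groups of 13 arrays, with 9 residual and 3.41 prior degrees of freedom, so SEs of the aged knockout group rest partly on tighter groups. Calls needed an adjusted p below 0.05 (Benjamini-Hochberg, all features, two-sided). The fit was tested on simulated normal values whose spread came from the wildtype groups alone. That test does not cover the wider spread of the aged knockout arrays. Figures and promoter windows were made with Python 3.11.15. Named were the 10 genes with the smallest p in each direction among those whose aged groups did not overlap. This number was used since under 5 nameable genes were called in each direction. Left out were predicted genes, microRNAs, small nucleolar RNAs and receptor or immunoglobulin segments. Nr3c2, Nr3c1 and members of lists stand beside the named genes. The 39 gene lists are described by counts and medians, with no test. A few members are not reported here. The comparison and the lists were chosen with earlier results of these data known. The number of arrays limits the precision. Alternatives changed the arrays fitted, weights, prior, scaling, filter and threshold.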

Additional observations from a re-analysis of the deposited data

Results flagged for a closer look

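Among 69 sets of aged wildtype values examined (called, named and receptor genes and the levels of gene lists), 4 had an array that stood apart from the other 3, where chance alone would give about 1 in 20. For Slc1a4, aged wildtype array 2 read 6.80 and the others 6.93 to 6.95, a gap of 0.832 of the whole range. For Mmp16, array 2 read 5.96 and the others 6.14 to 6.16, a gap of 0.894. For Bcl3, array 2 read 7.35 and the others 7.07 to 7.12, a gap of 0.837. For the kappa segment Igkv6-13, array 3 read 3.30 and the others 2.77 to 2.83, a gap of 0.875. In all 4 genes the aged knockout arrays still lay outside the wildtype range, which the naming of Slc1a4, Mmp16 and Bcl3 required.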

How the results depend on the processing

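No paired analysis was possible on replicate numbers because the aged knockout and wildtype arrays share no replicate number in the labels. The arrays' own numbers do fall into neighbouring sets across the genotypes. The labels do not say what these sets are, and a fit by such sets was not made. The number of called genes (12, 8 higher and 4 lower) was the least stable result: 0 on the 7 aged arrays alone and from the authors' deposited p-value, 5 with array weights, 2 with group weights, 1 with the mean of B lymphocyte genes added as a covariate, 5 without the third of features with the lowest level, 38 with an intensity trend (21 higher, 17 lower), 24 after a repeated quantile normalization (9 higher, 15 lower) and 115 with arrays centred on their median (51 higher, 64 lower). It ranged from 3 to 1442 when 1 aged array was left out (most without aged knockout array 3) and was 667 at an adjusted p under 0.1. All 12 remained under the trend, the repeated normalization and the centring. The balance of directions thus depends on scaling. With the covariate, 0 of the 12 remained, and the 1 gene called was another. Without the third of features with the lowest level, the 5 called were all among the 12, and the dim features were not tested. For the difference between ages (0 called), 1 gene was called with array weights, 1 without aged knockout arrays 1 and 2 (a fit in which the lone knockout array is assumed to vary like the other groups), and 0 to 16 in leave-one-out fits, most without aged knockout array 3. Nr3c2 had adjusted p 0.0407 with centring (difference -0.74) and differences from -0.827 to -0.605 in leave-one-out fits (adjusted p 0.00547 to 0.156).

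With that covariate, which by construction removes what that list shares, medians were -0.038 for the list itself and -0.101 for MHC class II (both turned), 0.002 for T lymphocyte, 0.108 for lymphoid organisation, 0.231 for kappa segments, -0.299 for cell cycle, -0.358 for collagens, -0.564 for elastic fibre and -0.438 for fibroblast genes. Leaving out 1 array, the collagen median ran from -0.30 to -0.202 (-0.212 without aged knockout arrays 1 and 2) and that of corticosteroid targets from -0.091 to 0.038. Of 738 list medians over the alternatives, 703 moved by less than the larger replicate SD of the aged groups. That SD was wide for some lists: a cell cycle median of 0.181, against 0.556, counted as unmoved. Group weights, a trend, a robust prior and the fit of the 7 aged arrays leave medians unchanged by construction. Of 374 values for the 20 named genes, 43 lost a call, 69 gained one and none turned. Since named genes had no overlap, leaving out arrays could not turn them. The cause of these changes was not tested. The 3 and 4 arrays per group, and dim readings, limit what can be called.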

Other observations

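Hspb7, a small heat shock protein of muscle, was read at 9.89, 8.35 and 10.04 on the aged knockout arrays and at 10.72, 10.16, 10.36 and 10.62 on the aged wildtype arrays, a difference of -1.03 (limma adjusted p = 0.119). Aged knockout array 2 was the lowest, as it was for the contractile genes. Of 33 heat shock and co-chaperone genes, 4 had higher and 6 lower values at an unadjusted p under 0.05, with a median of 0.03 and 0 called by limma on the 13 arrays or on the 7, where 3 had higher and 6 lower values.

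Among chemokines and cytokines, Ccl5, which attracts T cells and monocytes, was read at 9.36, 8.15 and 7.69 in aged knockout and at 7.31, 6.24, 6.53 and 6.46 in aged wildtype aorta, a difference of 1.76 (limma adjusted p = 0.0879). Mesothelial markers averaged 6.31, 5.28 and 6.61 in knockout and 6.45, 5.92, 5.83 and 6.66 in wildtype, with 0 of 10 at an unadjusted p under 0.05 by limma on the 13 arrays or on the 7. At an adjusted p under 0.1, where 1.68% of all genes were higher, the higher genes held 30 variable segments and 6 constant regions. They also held 15 genes of the biotype small nucleolar RNA. Snord73b and Scarna13, which carry other biotypes but were counted in the class of 51 above, passed as well. The lower genes held none of these classes.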
